A study of Arabidopsis thaliana with 4 samples.

Results

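Shoot apices of wild-type Arabidopsis thaliana grown on a topoisomerase I inhibitor were compared with apices of the same line grown on its solvent. The comparison rests on 2 of the 4 arrays of the study, the array named Col-0 10H-CPT and the array named Col-0 DMSO. Each was chosen by its title, and the probe sets described are those with a signal above the 40th percentile of all values of the 4 arrays, 46.6, on at least 1 of the 2. This left 14091 of 22746 probe sets, called measured here. The dimmest of them reached 46.67 on its brighter Col-0 array, and the brightest probe set left out reached 46.62.

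The study asked which genes depend on AS2 (Asymmetric Leaves 2), a nuclear protein of leaf development, and on DNA topoisomerase I (TOP1). Col-0, the standard laboratory accession, and the as2-1 mutant were each grown for 14 days on Murashige and Skoog agar under 16 h of light and 8 h of dark. The medium held either DMSO or 10H-CPT (10-hydroxycamptothecin) dissolved in DMSO, so the DMSO plants also received the solvent. RNA came from shoot apices with their leaf primordia, and biotin-labelled cRNA was hybridised to Affymetrix arrays, 1 array for each of the 4 groups. The dose, the number of plants pooled and the age at which the inhibitor was first given are not stated in the sources used here.

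DNA topoisomerase I cuts 1 strand of the double helix, lets it rotate and seals it again, which relieves the supercoils that build up ahead of and behind a moving polymerase. Camptothecins hold the enzyme on the cut DNA, and a replication fork that meets such a complex can turn it into a double-strand break. The shoot apex holds the meristem and the young primordia in which cells still divide and the upper and lower leaf faces are laid down.

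With 1 array in each group no difference below has a replicate check, no test between samples could be run and no p-value is given. Each value stands for these 2 libraries, and every fold is a ratio of MAS5 signals after scaling to a common trimmed mean. A signal under 46.6 was set to 46.6 before the ratio was taken, so a fold with such a signal is a bound, written "at least". A signal compares 1 probe set across arrays and does not rank genes by abundance. With the floor at the 60th percentile, 137.3, several dim genes named below were no longer past 2-fold, among them PDF1.2 (log2 ratio 0.61), CHIL (0.42), DFR (0.36), PYE (0.0), COR15A (0.0), FHL (-0.67) and OSM34 (-0.95). In whole tissue, fewer cells of a type and less RNA per cell cannot be told apart.

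The samples were checked against tissue markers. In photosynthetic leaf cells, RCA encodes Rubisco activase and LHCB4.1 a light-harvesting protein, and both were above the floor on all 4 arrays. RCA read 2452.2 on Col-0 DMSO and 2756.0 on Col-0 10H-CPT, and LHCB4.1 read 4944.9 and 4160.1. They were the 2 of 22 listed loci of that cell type with a named probe set, and their summed signal ran from 6364.0 to 7397.1 over the 4 arrays. The root hair expansins EXPA7 and EXPA18, 2 of 6 root loci with a named probe set, stayed at or below 19.7 on all 4 arrays. CLV3, which marks the stem cells of the shoot meristem, was under the floor everywhere with a highest signal of 15.0, so the meristem could not be followed through it. The trichome regulator TRY was also under the floor, at or below 32.3, and none of the 8 vascular loci had a named probe set.

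Of the measured probe sets 218 (1.55%) exceeded their DMSO signal by 2-fold or more in plants on 10H-CPT, and 296 (2.1%) fell short of it by as much, 514 (3.65%) in all. The median log2 ratio was -0.007, and the log2 ratios of the 13094 probe sets above the floor on both arrays had an SD of 0.445 across probe sets. The lists thinned fast with size and their tails were uneven. At 4-fold or more there were 39 higher and 36 lower, at 8-fold or more 17 and 4, and at 16-fold or more 9 and 1. The smallest fold called was 2.0 and the largest not called 1.997.

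GEO's platform annotation paired 7633 of the measured probe sets with 1 gene. Of these, 96 (1.26%) were on the higher list and 118 (1.55%) on the lower, 214 (2.8%) in all. The 6458 others, with no gene or several, held 122 (1.89%) higher and 178 (2.76%) lower, so more than 1 in 2 of the calls carry no gene name here. Among those unnamed calls, probe set 251524_at read 105.4 on DMSO and 2336.1 on 10H-CPT, 22.2-fold, and 261913_at read 48.4 and 1031.9, 21.3-fold. In the other direction, 262369_at went from 694.3 to 77.3, 8.98-fold lower, and 251109_at from 2861.2 to 368.6, 7.76-fold lower. These 4 were singled out after their values were seen.

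**Figure D1:**
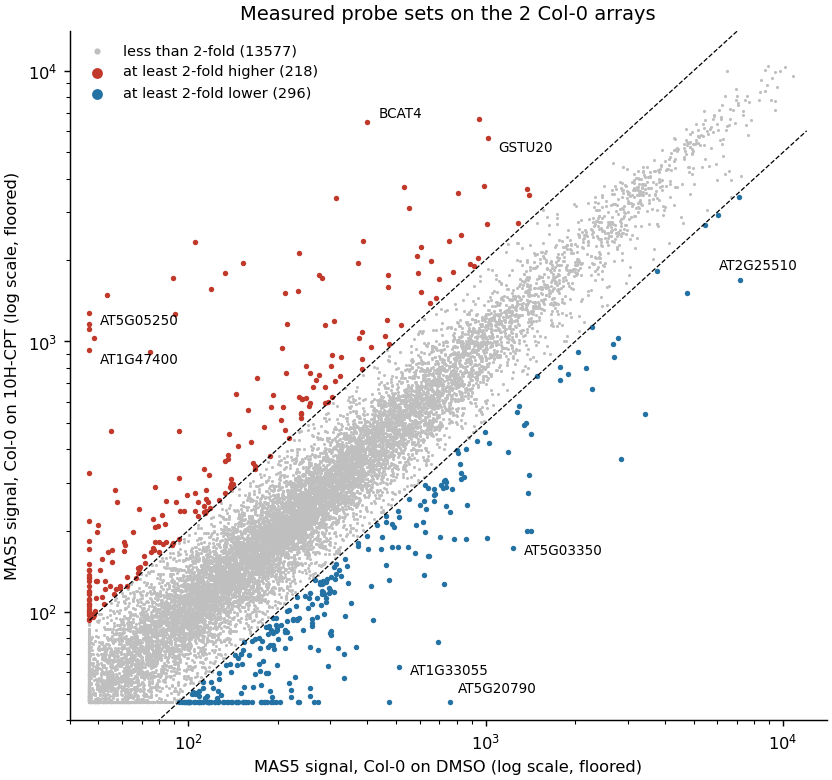
MAS5 signal of each measured probe set on the Col-0 DMSO array (horizontal) and the Col-0 10H-CPT array (vertical), both on log scales, with signals below 46.6 drawn at 46.6. Dashed lines mark 2-fold, 218 probe sets lie above the upper line and 296 below the lower one, and the higher points reach farther from the lines than the lower ones.

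On the list of methionine-derived glucosinolate genes, the 3 loci that could be read were higher on 10H-CPT. Glucosinolates are the sulfur-rich defence compounds of the cabbage family, built by lengthening methionine, turning the chain into an oxime and adding sulfur, glucose and sulfate. All 3 measured loci of this list, of 24 listed, were past 2-fold, with a median log2 ratio of 2.71. Over all measured probe sets 1.55% were past 2-fold higher and the median was -0.007. This list, like those below, was chosen with earlier results of these data known. Its share and median describe the 3 loci alone and were not tested. BCAT4, the aminotransferase that takes methionine into the chain-lengthening cycle, read 400.7 on DMSO and 6471.5 on 10H-CPT, 16.1-fold. It was the largest fold among named genes measured on both Col-0 arrays. AT2G31790, another locus of the list, read 235.1 and 1541.5, 6.56-fold. GSTU20, a glutathione S-transferase of the tau class, read 1016.4 and 5656.3, 5.56-fold.

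A step shared with the tryptophan-derived branch stood on the same side. UGT74B1, which adds glucose to the thiohydroximate in glucosinolate synthesis, read 823.8 on DMSO and 2465.5 on 10H-CPT, 2.99-fold, and was the 1 measured locus of 20 on the tryptophan list. Outside the lists, APS3 encodes an ATP sulfurylase, the enzyme that activates sulfate. It read 193.5 and 635.7, 3.29-fold. HL, a HAL2-like protein, read 915.0 and 1902.8, 2.08-fold. MGL, the methionine gamma-lyase that breaks methionine down, was on the lower side, at 402.4 on DMSO and 170.9 on 10H-CPT, 2.36-fold lower. These 3 genes were named after their values were seen.

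Iron genes followed with fewer members. When iron is short, Arabidopsis raises a set of bHLH transcription factors and small signalling peptides that govern uptake and internal use of the metal. Of 24 listed loci, 3 were measured, 2 were past 2-fold higher and none lower, with a median log2 ratio of 1.22, against 1.55% higher and a median of -0.007 over all measured probe sets. The list's median was 2.82 with the floor at the 20th percentile and 2.76 with it at the 60th, so its size is not settled. AT1G47400 was below the floor on DMSO, at 44.6, and read 929.6 on 10H-CPT, at least 19.9-fold higher. PYE, a bHLH regulator of the iron deficiency response, read 52.4 and 121.9, 2.33-fold. BHLH101, of the same response, read 1.0 and 69.7, which is at least 1.5-fold because the lower signal is under the floor.

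The flavonoid and anthocyanin list differed less, and to 1 side. All 7 measured loci of 31 listed had a ratio above 1, with a median log2 of 0.60, and 2 were past 2-fold. Over all measured probe sets, 6930 of 14091 had a ratio above 1 and 1.55% were past 2-fold higher. CHIL, the chalcone isomerase-like protein that aids flavonoid production, read 37.5 on DMSO and 183.4 on 10H-CPT, at least 3.93-fold. DFR, the reductase that commits dihydroflavonols to anthocyanin, read 61.6 and 176.5, 2.87-fold. The enzymes that decorate the pigment stayed under 2-fold. UGT78D2, a flavonoid 3-O-glucosyltransferase, read 121.7 and 186.0, and the anthocyanin glycosyltransferase UF3GT read 47.0 and 68.8. The flavonol rhamnosyltransferase UGT78D1 read 456.7 and 549.8, 1.2-fold.

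The jasmonate list rests on 1 defence peptide. PDF1.2, an antifungal defensin used as a marker of jasmonate and ethylene signalling, read 49.7 on DMSO and 209.2 on 10H-CPT, 4.21-fold. Its near-identical relative PDF1.2b, whose probe set can share signal with it, read 44.9 and 136.6, at least 2.93-fold. PDF1.2 was the 1 measured locus of the jasmonate list. The 2 others with a probe set, JMT, which methylates jasmonic acid, and the transcription factor ORA47, were below the floor on both arrays. SAG101, the 1 measured locus of the salicylic acid list, read 75 and 68.0. JAL23, a jacalin-related lectin, read 327.4 and 877.9, 2.68-fold. PDF1.2b and JAL23 were not on the jasmonate list and were named after their values were seen.

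Among the higher genes with a symbol, 3 encode chaperones or their partners, while the list of heat shock genes could hardly be read. Hsp70-2, an HSP70 chaperone, read 137.8 on DMSO and 456.6 on 10H-CPT, 3.31-fold. Cpn60beta2, a subunit of the chloroplast chaperonin, read 885.7 and 1926.9, 2.18-fold. Hop3, the co-chaperone that links HSP70 to HSP90, read 41.4 and 101.2, at least 2.17-fold. Of the 14 loci on the heat shock list, 3 had a probe set and 1 was measured, AT5G51440, at 69.8 and 77.4. The other small heat shock loci with a probe set, ATHSP22.0 and AT1G53540, were below the floor on both arrays. The 3 chaperone genes were named after their values were seen. How many measured genes encode chaperones was not counted, and 1.55% of all measured probe sets were past 2-fold higher. In as2-1 none of the 3 was past 2-fold, with log2 ratios of 0.56 for Hsp70-2, 0.47 for Cpn60beta2 and -0.1 for Hop3.

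Cell-wall loosening genes were split. Expansins and xyloglucan endotransglucosylases (XTH) let the wall yield as cells grow. Of the 12 list loci with a probe set 7 were measured. Among these 1 was past 2-fold higher and 1 lower, where 1.55% and 2.1% of all measured probe sets were. The list's median log2 ratio was 0.14. The sign of that median turned with the floor, to -0.25 at the 20th percentile. EXPB3, a beta-expansin, read 112.8 on DMSO and 337.6 on 10H-CPT, 2.99-fold, and EXLA1, an expansin-like gene, read 308.9 and 118.7, 2.6-fold lower. EXPA4, an alpha-expansin, read 356.3 and 626.2, while XTH19 read 202.1 and 120.7, both under 2-fold. A further alpha-expansin, EXPA15, was not on the list and was named after its values were seen. It read 257.4 and 593.1, 2.30-fold. Outside the lists, and named after their values were seen, ARL and CYP78A9 were on the lower side. ARL, which promotes cell expansion in organs, read 507.0 and 174.3, 2.91-fold lower. CYP78A9, a cytochrome P450 of a family that promotes organ growth, read 100.4 and 38.7, at least 2.15-fold lower.

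A clock gene and a light-signalling gene were on the lower list. GI, a clock and flowering-time protein with a strong daily rhythm, read 548.0 on DMSO and 173.4 on 10H-CPT, 3.16-fold lower, and was the 1 measured locus of 23 on the clock list. FHL, which carries phytochrome A into the nucleus, read 219.1 and 54.6, 4.01-fold lower. CCL, which was not on the clock list and was named after its values were seen, read 3755.0 and 1814.4, 2.07-fold lower. The hour of harvest is not stated in the sources used here, and its part in these values was not tested.

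On the cold and abscisic acid list 4 of 24 loci were measured, none past 2-fold higher and 1 lower. Over all measured probe sets 1.55% were higher and 2.1% lower, with a median log2 ratio of -0.007. The list's median was -0.51, or -0.08 with the floor at the 60th percentile. COR15A, which protects chloroplast membranes in the cold, read 110.6 on DMSO and 42.3 on 10H-CPT, at least 2.37-fold lower, while its close relative COR15B read 125.0 and 117.3. The dehydrin LTI30 read 161.8 and 85.1, and the dehydrin COR47 read 402.9 and 425.3, so the members did not share a direction. The 5 measured loci of the dark-inducible and sugar-repressed list, of 22, had a median log2 ratio of -0.40 and none past 2-fold. Among them AKINBETA1, a subunit of the SnRK1 energy sensor, read 545.3 and 312.9. Outside both lists, OSM34, an osmotin-like protein, read 266.1 and 40.4, at least 5.71-fold lower. CML38, a calmodulin-like calcium sensor named after its values were seen, read 175.7 and 20, at least 3.77-fold lower.

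The named genes with the largest lower folds are mostly loci without a symbol in the reference. AT5G20790 read 761.1 on DMSO and 43.9 on 10H-CPT, at least 16.3-fold lower. AT1G33055 read 511.3 and 62.5, 8.18-fold lower, AT5G03350 read 1234.5 and 172.2, 7.17-fold lower, and AT1G19960 read 1378.8 and 200.1, 6.89-fold lower. The 12 lowest above the floor on both arrays spanned 3.26- to 8.18-fold. Among them AT2G25510 read 7190.4 and 1680.8, 4.28-fold lower. AT5G09570, of the oxidative stress list, read 222.3 and 48.6, 4.57-fold lower. On the higher side, AT5G05250 read 30.5 and 1115.6, at least 23.9-fold, AT3G56360 read 211.2 and 1510.1, 7.15-fold, and AT1G21440 read 552.6 and 3109.1, 5.63-fold. The 12 highest above the floor on both arrays spanned 3.37- to 16.1-fold.

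**Figure D2:**
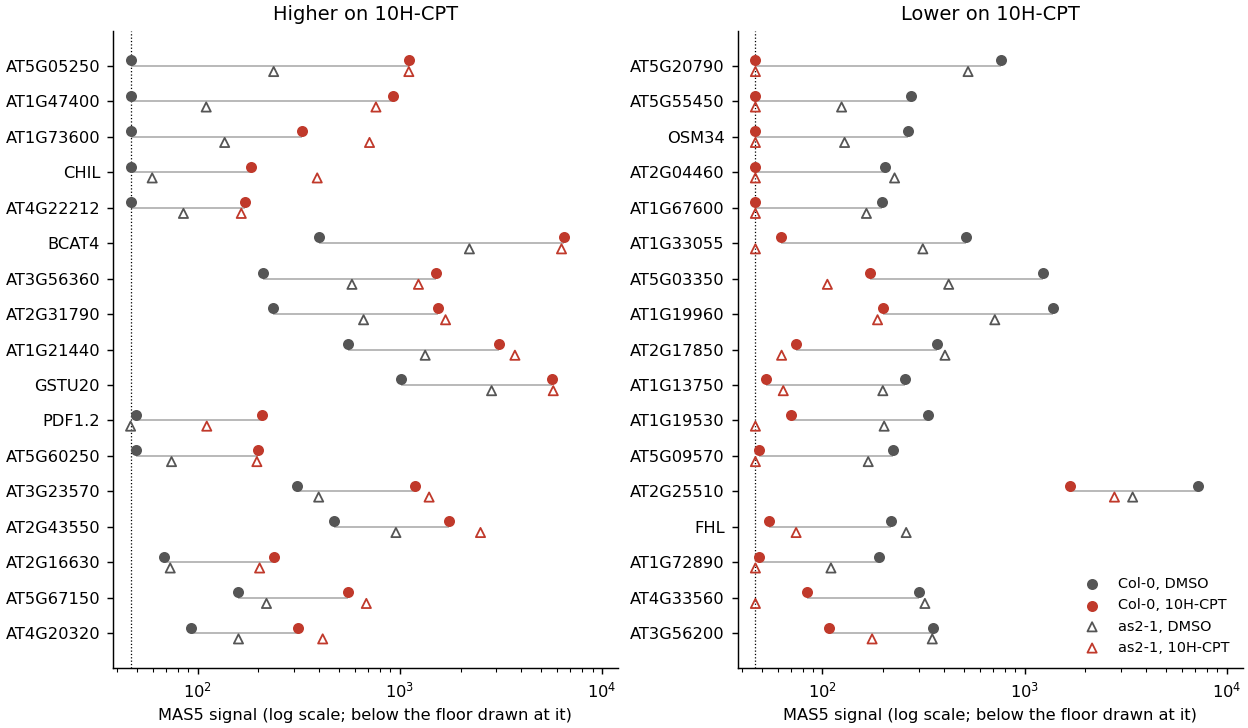
MAS5 signals (log scale) of the genes with the largest folds in Col-0, with the 12 extreme ratios and the 5 with 1 signal under the floor in each direction. Circles are Col-0, triangles as2-1, grey is DMSO and red is 10H-CPT, 1 array each, and the dotted line is the floor of 46.6. For BCAT4 the red symbols of both genotypes lie close together, at 6471.5 and 6320.9, while the grey ones lie apart, at 400.7 and 2213.4.

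The genes nearest to the inhibitor's target could be read only in part. Neither TOP1 gene had a probe set paired with it in the annotation used. Of the 9 loci on the topoisomerase list 3 were measured, none past 2-fold, with a median log2 ratio of 0.28. TOPII, the topoisomerase that cuts both strands, read 382.8 on DMSO and 463.2 on 10H-CPT, 1.21-fold. TOP3A, which resolves recombination intermediates, read 96.1 and 136.8, 1.42-fold. Its helicase partner RECQ4A read 32.3 and 50.6, at least 1.09-fold. The log2 ratios of TOPII and TOP3A were 0.28 and 0.51, and 1 array a group gives no error for either. The log2 ratio of RECQ4A is a bound and was 0.65 with the floor at the 20th percentile.

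The DNA damage list gave 2 measured loci of 28, neither past 2-fold. ATLIG4, the ligase of non-homologous end joining, read 89.8 on DMSO and 99.5 on 10H-CPT, 1.11-fold. ATMND1, a homologous-recombination protein known from meiosis, read 54.7 and 102.1, 1.87-fold. The transcriptional targets of the damage response used most often as its readout are among the 26 loci not read here. On the cell cycle list 4 of 28 loci were measured, none past 2-fold, with a median log2 ratio of 0.69. AUR2, an Aurora kinase of mitosis, read 107.7 and 210.7, 1.96-fold, just under the threshold, and AUR1, also an Aurora kinase, read 191.0 and 295.4, 1.55-fold. PRL, the MCM7 subunit of the replicative helicase, read 222.5 and 373.2, 1.68-fold. SIM, an inhibitor of cyclin-dependent kinases that favours endoreduplication, was the 1 on the other side, at 347.3 and 263.0.

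Further genes with a symbol, named after their values were seen, passed 2-fold outside the lists. On the higher side, ALC, a bHLH factor of fruit opening, read 67.9 on DMSO and 145.4 on 10H-CPT, 2.14-fold, and SBTI1.1, a subtilase, read 47.2 and 98, 2.08-fold. On the lower side, ATSPS4F, a sucrose phosphate synthase, read 127.4 and 59.4, 2.14-fold lower. ChiC, a chitinase, read 109.7 and 22.2, at least 2.35-fold lower, and BETA-VPE, a vacuolar processing protease, read 145.6 and 63.6, 2.29-fold lower. MSRB9, a methionine sulfoxide reductase, read 627.4 and 294.1, 2.13-fold lower. ECS1 read 4761.5 and 1513.3, 3.15-fold lower. Over all genes with a symbol of their own, 20 were higher and 23 lower of 1099 measured. Over all 14091 measured probe sets, 218 (1.55%) were higher and 296 (2.1%) lower.

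Leaf polarity genes, the setting in which AS2 acts, differed little between the Col-0 arrays. Of 21 listed loci 4 were measured, none past 2-fold, with a median log2 ratio of 0.30. PHV, an HD-ZIP III factor of the upper leaf face, read 489.5 on DMSO and 640.6 on 10H-CPT, 1.31-fold. Of the YABBY factors of the lower face, YAB3 read 253.9 and 240.3, and YAB5 read 63.8 and 75.7. AGO7, an Argonaute that makes the small RNAs limiting lower-face fate, read 69.0 and 88.4, 1.28-fold. Loci of the lists on auxin (4 measured of 28) and on starch and QQS (5 of 22) also stayed under 2-fold, with median log2 ratios of -0.18 and -0.11.

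Transcripts of the organelle genomes stayed within 2-fold in Col-0. Of 69 chloroplast-genome probe sets with 1 gene, 67 were measured. Of these, 49 had a ratio above 1, against 6930 of 14091 over all measured probe sets, and the median log2 ratio was 0.16. The lowest was psaC, a photosystem I subunit, at 229.4 on DMSO and 118.3 on 10H-CPT. The highest was rpl33, a ribosomal protein gene, at 1981.0 and 3208.1. The 10 measured mitochondrial probe sets had a median log2 ratio of -0.18, from -0.39 to 0.23. In as2-1 the chloroplast list had 22 ratios above 1 and 44 below 1 of 66 measured. Its median there was -0.11, with 3 past 2-fold lower, and the mitochondrial median was -0.77. Neighbouring genes of the chloroplast genome are transcribed together, so these probe sets are not separate readings.

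**Figure D3:**
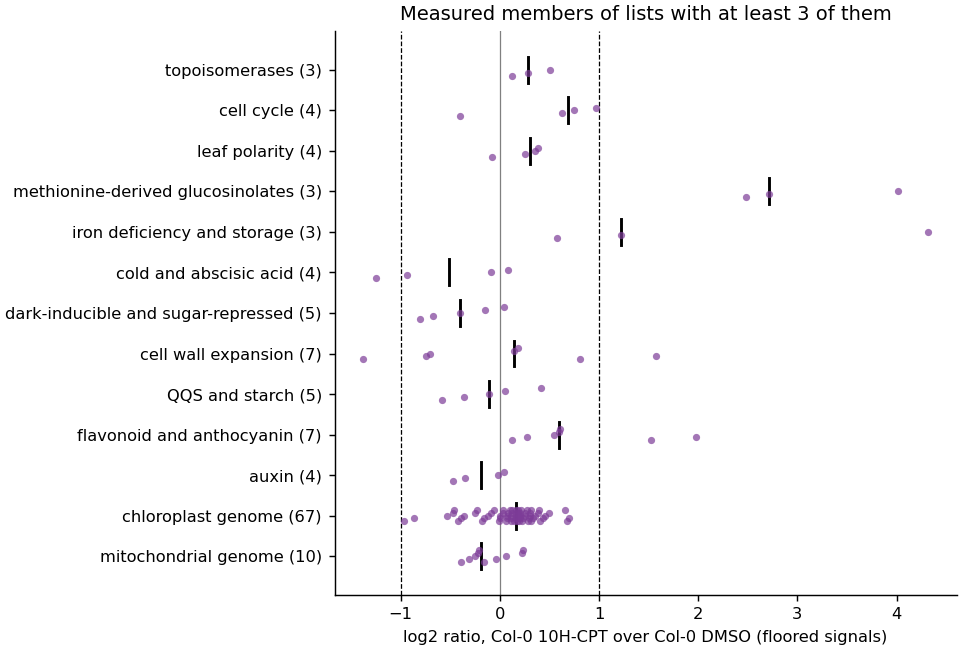
Log2 ratio of Col-0 10H-CPT over Col-0 DMSO for each measured member of the gene lists with at least 3 measured members, whose number stands in brackets. Each point is 1 probe set, the black bar is the list's median, and dashed lines mark 2-fold. The 3 methionine-derived glucosinolate genes all lie right of the dashed line, from 2.48 to 4.01, and the 67 chloroplast-genome points lie between the dashed lines.

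Over all 27 lists, 86 of the 556 loci had a probe set paired with 1 gene, and 63 of those probe sets were measured. A list with 1 to 4 measured loci says little of the rest of its pathway, and 6 lists had none measured, among them those on phosphate starvation, cytokinin and the meristem.

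Short genes held more of the calls than long ones. A gene length from the TAIR10.1 annotation was known for 7556 nuclear probe sets, 53.6% of those measured, and for 214 of the 514 called, 41.6%. As a statement on all measured probe sets the comparison is therefore void, and it describes those with a length alone. In the shortest quintile, up to 1613 bases, 34 were at least 2-fold higher and 51 at least 2-fold lower of 1512, together 5.62%. In the next quintiles the share was 2.58%, 2.78% and 1.79%, and it was 1.39% in the longest, from 3550 bases. The median log2 ratio stayed between -0.047 and 0.004 in all quintiles, while the SD of the ratios across genes was 0.556 in the shortest and 0.355 in the longest. Of 35 genes of at least 10 kb, none was past 2-fold, where 1.39% of the whole longest quintile were. A ratio below 1 was found in 25 of the 35, against 7161 of 14091 over all measured probe sets. Their median log2 ratio was -0.078, beside -0.047 in the longest quintile.

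The share called also differed by brightness, taken as the brighter of the 2 signals. A probe set whose brighter signal is less than 2 times the floor cannot reach 2-fold, which fixes part of the low share among dim probe sets. The dimmest tertile of all measured probe sets had 2.21% past 2-fold, the middle tertile 4.24% and the brightest 4.49%. Within the brightest tertile of the probe sets with a gene length, 5.96% of the shortest quintile and 2.06% of the longest were past 2-fold. Within the middle tertile the same shares were 8.98% and 0.712%, and within the dimmest tertile 2.56% and 1.56%. The order of shortest above longest was present in all 3 tertiles.

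**Figure D4:**
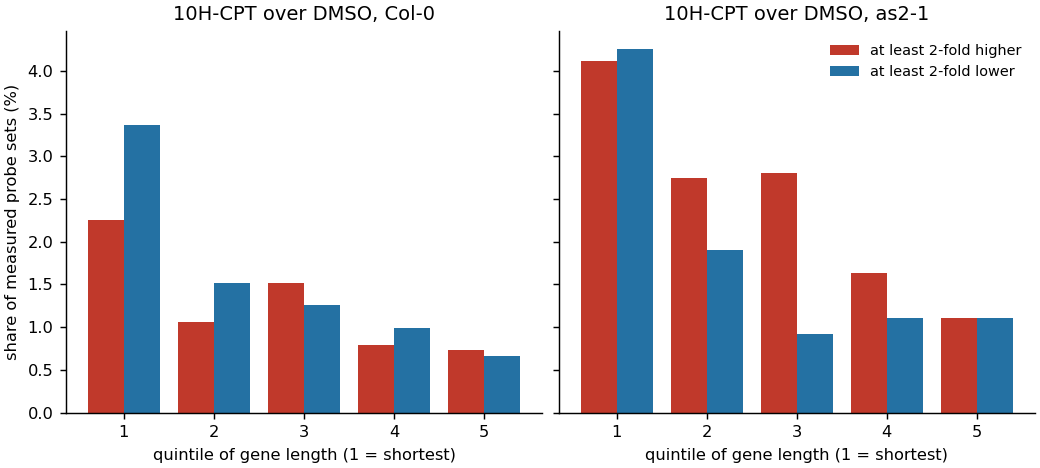
Share of measured probe sets with a known gene length that were at least 2-fold higher (red) or at least 2-fold lower (blue) on 10H-CPT, by quintile of gene length, in Col-0 (left) and as2-1 (right). In Col-0 the 2 bars together fall from 5.62% in the shortest quintile to 1.39% in the longest, and in as2-1 from 8.37% to 2.22%.

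The as2-1 pair, which shares no array with the Col-0 pair, shows how the same genes read in the mutant. There, 190 (2.46%) of 7718 measured probe sets with 1 gene were on the higher side by 2-fold or more and 145 (1.88%) at least 2-fold lower, 335 (4.34%) in all. Of the 96 higher genes of Col-0, 46 were also past 2-fold higher in as2-1, 47.9% of the Col-0 list and 24.2% of the as2-1 list. Of the 118 lower, 53 were also past 2-fold lower, 44.9% and 36.6%. Their direction without a threshold was shared by 90 of the 96 and 106 of the 118. The median log2 ratio of these genes was 1.34 in Col-0 and 0.95 in as2-1 for the higher, and -1.34 and -0.94 for the lower. They were chosen on Col-0, so a smaller ratio in the other pair is built into that comparison.

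The 12 highest named genes above the floor on both Col-0 arrays also passed 2-fold in as2-1, all in the same direction, but over a narrower span, 2.02- to 3.52-fold. BCAT4 read 2213.4 on as2-1 DMSO and 6320.9 on as2-1 10H-CPT, 2.86-fold. The 10H-CPT signals of the genotypes lay close together and the DMSO signals apart. GSTU20, at 2849.3 and 5753.0, and AT2G31790, at 662.6 and 1686.5, had the same layout. All 3 were chosen for a large Col-0 ratio, which favours a low signal on the 1 Col-0 DMSO array. Part of this layout is therefore built in, and it was not tested. Of the 149 called genes above the floor on all 4 arrays, 29 had a fold at least 2 times as large in Col-0 as in as2-1, 14 higher and 15 lower. The as2-1 DMSO signal lay between the 2 Col-0 signals in 12 of the 14 and 11 of the 15. Choosing genes with Col-0 signals far apart favours an as2-1 signal between them. No share for the other genes was computed, so nothing is concluded from this layout. The 149 were called on the Col-0 ratio, so a larger fold in Col-0 is built into the count of 29. The reverse count is not given here.

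Other genes had a larger ratio in as2-1. DFR read 87.3 on as2-1 DMSO and 697.6 on as2-1 10H-CPT, 7.99-fold against 2.87-fold in Col-0. In as2-1, 6 of the 7 flavonoid loci were past 2-fold higher, with a median log2 ratio of 2.35. Of all measured probe sets with 1 gene there, 2.46% were. JAL23 read 138.9 and 1705.2 in as2-1, a log2 ratio of 3.62 against 1.42 in Col-0. GI read 413.6 and 64.9, 6.38-fold lower, and ARL read 924.5 and 111.5, a log2 ratio of -3.05 against -1.54. AGO7, 1.28-fold higher in Col-0, read 136.9 and 70.3 in as2-1, 1.95-fold lower, with neither past 2-fold. None of these differences between genotypes could be tested with 1 array each.

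No named gene was past 2-fold in opposite directions in the 2 genotypes. Among unnamed probe sets 5 were, all lower in Col-0 and higher in as2-1 on 10H-CPT. The widest gap was in 266142_at, at 270.3 and 113.1 on the Col-0 arrays and 79.4 and 1283.9 on the as2-1 arrays.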

How the data were processed

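Signals of 4 Affymetrix arrays were used as deposited in the series' value table. Per the submitters' processing notes the authors computed these intensity values with MAS5, on a linear scale; the version, the scaling target and detection calls are not stated in the labels, and MAS5 subtracts mismatch probes, which leaves dim signals noisy. Groups were taken from the array titles, 1 array each. Each array was scaled to a common mean after trimming 2% at each end (factors 0.9994 to 1.0006), floored at 46.6, the 40th percentile, and put on a log2 scale. No test, SD between samples or p-value could be computed, and the number of arrays limits the precision. A fold of 2 in the log2 ratio was the threshold throughout.

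Of 22746 probe sets, GEO's platform annotation lists 14016, of which 13513 have 1 gene and 503 several, and the other 8730 are unnamed here. Symbols and lengths came from RefSeq (TAIR10.1), which held 13508 of the 13513. Named are the 12 highest and 12 lowest ratios above the floor on both Col-0 arrays, the 5 brightest with the other signal below it, list members past 2-fold, and all measured topoisomerase, DNA damage and polarity genes. Only the largest of these are given in full. Probe sets that may cross-hybridise (_s_at, _x_at) were not named by this rule. Further genes with a symbol, and unnamed probe sets, were added after their values were seen. The members and lists were chosen with earlier results of these data known. No sequence is printed, and promoter motifs were not analysed here. The ratio code was tested on simulated data. Python 3.11.15, numpy 2.4.6, pandas 2.3.3 and statsmodels 0.14.6 were used. The 9 alternatives are in the closing section.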

Additional observations from a re-analysis of the deposited data

Results flagged for a closer look

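Some probe sets had opposite directions in the genotypes, lower with the inhibitor in Col-0 and higher with it in as2-1. These differences between genotypes were not tested, with 1 array in each group. COR15A, the cold-regulated gene, had a log2 ratio of -1.25 in Col-0, where 10H-CPT was below the floor, and of 0.67 in as2-1, where it read 112.6 and 179.5. AT2G39210 read 116.6 on the Col-0 DMSO array and 26 on the Col-0 10H-CPT array, and its log2 ratio in as2-1 was 0.56. Neither was past 2-fold in as2-1. The 5 unnamed probe sets past 2-fold in both genotypes had as2-1 log2 ratios of 1.1 (250054_at), 1.22 (253161_at), 1.57 (253872_at), 1.21 (262226_at) and 4.01 (266142_at). Their Col-0 log2 ratios were -1.33, -2.11, -1.71, -1.82 and -1.26.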

How the results depend on the processing

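The counts of 218 higher and 296 lower probe sets moved with the floor and the fold chosen. They were 550 and 668 with the floor at the 20th percentile, 121 and 135 with it at the 60th, 857 and 1034 at 1.5-fold, and 68 and 84 at 3-fold. They stayed within 1.5 times under the deposited scaling (218 and 296), quantile normalization (222 and 293), intensity-dependent centring (221 and 295), both signals above the floor (187 and 234) and without cross-hybridising probe sets (207 and 282). The higher share of all calls was 42.4%, and 42.3% to 47.3% under these alternatives. The share called in the shortest length quintile was 5.62%, 5.62% after centring and 3.66% with the floor at the 60th percentile, where it was 0.916% in the longest. Of 63 gene ratios and list medians, none moved by 0.5 or more on the log2 scale under quantile normalization or centring, 4 did with the lower floor and 28 with the higher one, which pulls dim signals to a common value by construction. The median of the iron list went from 1.22 to 2.82 with the lower floor. It was 2.76 with the higher one, where AT1G47400 was the only measured member. The median of the cell wall list turned from 0.14 to -0.25 with the floor at the 20th percentile. No other list median or gene ratio changed sign. No paired analysis was possible because each group has 1 array, and no array could be left out. Signals near the floor limit the folds of dim genes.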

Other observations

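Gene families were grouped by symbol, a choice made after the values were seen, and none was tested. Of 16 families with at least 8 measured members, the 3 with the lowest medians and the CYP family are described. The 9 measured BGLU genes, beta-glucosidases, had a median log2 ratio of -0.50 in Col-0, with 6 below 0 and 2 past 2-fold lower, against 2.1% lower over all measured probe sets. BGLU28 read 117.6 on DMSO and 41.1 on 10H-CPT, and BGLU33 read 671.1 and 284.9. The 12 measured IQD genes, calmodulin-binding proteins of the cytoskeleton, had a median of -0.40 with 10 below 0 and none past 2-fold, and in as2-1 a median of -0.22. The 8 ATG genes, named for autophagy, were all below 0 in Col-0, with a median of -0.26 and none past 2-fold. Their as2-1 median was -0.07. The 11 CYP genes, cytochromes P450, had a median of 0.02 in Col-0 and 3 past 2-fold lower, where 2.1% of all measured probe sets were. The as2-1 medians of the BGLU and CYP genes were -0.35 and 0.0. Over all measured probe sets 7161 of 14091 were below 0.

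Neighbouring genes with at most 1 gene between them gave 3852 measured pairs, and both were past 2-fold in 7 of them, 5 in the same direction. Of single probe sets with 1 gene 2.8% were past 2-fold. No matching share of pairs was computed, so 7 cannot be called many or few. AT5G05250 and CHIL (AT5G05270) were 1 of the 7 pairs, both higher on 10H-CPT, with log2 ratios of at least 4.58 and 1.98. EXPB3 (AT4G28250) and AT4G28260 went opposite ways, at 1.58 and -1.42.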
